A study of Drosophila melanogaster with 15 samples.

Results

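The genes described here are 76 Drosophila genes whose platform symbol is a computed-gene (CG) number and whose signals were lower in wild type larvae injected with Escherichia coli than in wild type larvae injected with phosphate buffered saline (PBS). They were picked from 14010 probe sets of an Affymetrix array, of which 12443 carried exactly 1 gene symbol and 4911 a single CG symbol. All 3 wild type E. coli signals had to lie below all 3 wild type PBS signals, which 5.42% of the CG probe sets met, the PBS mean had to be at least 1.5 times the E. coli mean, and the PBS mean had to be at least 300 signal units. CG17105 and CG3819 were to be left out, but neither met these conditions. The 76 probe sets stood for 76 different genes, and RefSeq lists each of them as protein-coding. The choice rests on the wild type arrays alone, so the wild type difference is described without a test, and what the rule did not use is the signal in the 3 mutants.

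The series measured transcripts of whole larvae, in the third instar, after an injection of bacteria or saline, with a pool of 20 larvae per array and 3 arrays in each of 5 groups. The Relish mutant carries the allele Relish E20, the Dif mutant Dif1 and the dorsal mutant Dorsal1, and their treatment text names E. coli. Wild type larvae received E. coli or PBS. Each larva of every group received roughly 0.1 microliter of fluid, and RNA was taken 2 h later. PBS-injected mutants were not analysed here, so stock differences present without infection and a different response to bacteria cannot be told apart. The titles of all 9 mutant arrays hold the letters ctr, as do those of the wild type PBS arrays, which conflicts with their treatment text, and the treatment text was followed.

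Flies answer bacteria through 2 signalling routes that end in NF-kappaB transcription factors. The Imd pathway, which peptidoglycan of Gram-negative bacteria activates, acts through Relish, and the Toll pathway acts through Dif and dorsal. These routes are best known for the genes they switch on, such as those of antimicrobial peptides made in the fat body. The genes described here were chosen for the opposite direction in wild type. Their CG symbols record only that a gene was predicted from the genome. Among the 76 are predicted peptidases, membrane transporters, metabolic enzymes and members of a family of small-molecule kinases, along with genes that have no stated role here.

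The arrays were scaled alike, with trimmed mean signals between 800.2 and 800.25. Rel, the transcript of Relish, was at 18.9, 11.4 and 27.4 units in the Relish mutant, against 4980.7, 3095.2 and 3328.6 in wild type given E. coli and 807.0, 663.6 and 721.8 given PBS. Rel read 1091.5, 1191.2 and 1272.7 in Dif and 1186.9, 373.5 and 1306.5 in dorsal, below every wild type E. coli array. Dorsal replicate 2 also lay below every wild type PBS array, and the Relish arrays lay below all others. The probe sets of Dif and dl, the gene of dorsal, did not check their labels. The summed signal of 6 tested antimicrobial peptide genes of 14 listed was 4382 to 13023 units in Relish, 12119 to 26837 in Dif and 11598 to 22634 in dorsal, against 35350 to 58060 in wild type given E. coli and 11329 to 16246 given PBS, so every mutant array lay below every wild type E. coli array.

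In wild type larvae the members' mean signals were lower after E. coli than after PBS by a median factor of 1.84, and 27 of the 76 differed by a factor of at least 2. On the scale log2(signal + 80), the members' median difference was -0.78, with single genes between -1.94 and -0.49, and that of all 11427 probe sets tested was 0.00. Over all probe sets limma called 1 lower at an adjusted p under 0.05, or 0.00875%, and 17 higher. No member was among these, and nothing is read from this about the members, since the rule used this contrast. In whole larvae, fewer cells of a type and less RNA per cell cannot be told apart.

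The 10 members with the highest ratio of PBS to E. coli means were CG17283, CG4269, CG13659, CG10505, CG32344, CG10514, CG6356, CG11892, CG7149 and CG17141. CG17283, a predicted aspartic endopeptidase, read 456.7, 252.1 and 79.9 signal units in Relish, 191.4, 28.5 and 183.5 in Dif and 25.3, 340.0 and 161.2 in dorsal, against 28.7, 34.0 and 81.8 in wild type given E. coli and 279.7, 411.4 and 556.4 given PBS. Its mutant arrays were scattered, and each mutant overlapped with the wild type E. coli arrays, and Relish and dorsal also with those given PBS. CG7149, which carries the synonym cpt, read 439.9, 302.7 and 442.8 in Relish, 426.5, 341.7 and 388.5 in Dif and 383.2, 280.7 and 434.9 in dorsal, against 203.1, 78.6 and 74.2 in wild type given E. coli and 376.2, 419.4 and 315.4 given PBS. All 9 mutant values of CG7149 thus lay above the 3 wild type E. coli values and around those given PBS.

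CG32344, a predicted DEAD-box RNA helicase with the synonym DmRH20, read 109.4, 173.5 and 122.7 signal units in Relish, 98.6, 234.2 and 89.4 in Dif and 403.8, 356.4 and 246.4 in dorsal, against 81.1, 119.3 and 87.6 in wild type given E. coli and 210.5, 524.9 and 272.1 given PBS. The dorsal arrays lay within the PBS range, and most of those of Relish and Dif below it. CG17141 spanned 159.8 to 617.3 on the mutant arrays, against 193.4, 218.0 and 231.5 in wild type given E. coli and 426.2, 683.6 and 555.7 given PBS. None of CG17283, CG7149, CG32344 and CG17141 was called in any of the 6 comparisons described further on.

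The fold threshold ran through a dense range of values. CG8773, a predicted aminopeptidase, entered with 2293.0 units after E. coli and 3450.4 given PBS, a ratio of 1.505, followed by CG10953 and CG8195 at 1.51 each. CG4610, CG14932 and CG31259 stayed outside at 1.49 each. At the PBS minimum, CG17129, CG6310 and CG10936 were inside with means of 306.2, 306.7 and 313.8 units, while CG15820, CG14971 and CG12231 were outside with 295.1, 290.5 and 289.7.

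**Figure D1:**
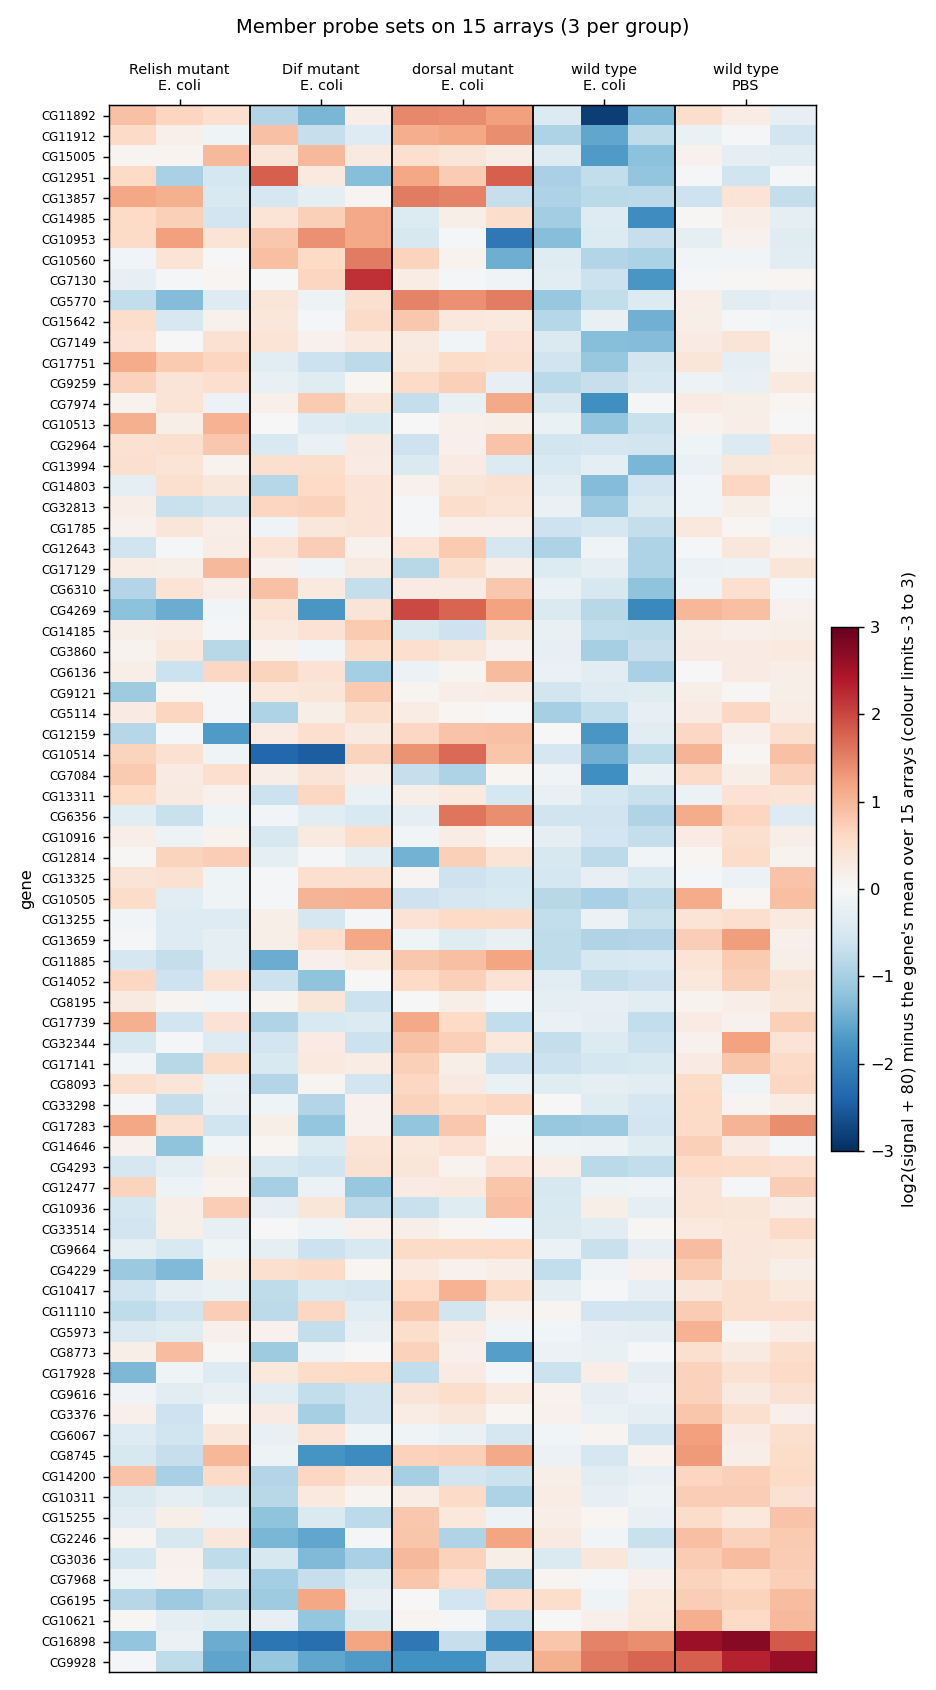
Each row is 1 of the 76 members and each column 1 array, in the order Relish mutant, Dif mutant, dorsal mutant, wild type given E. coli and wild type given PBS. Colour gives log2(signal + 80) minus that gene's mean over the 15 arrays. The wild type E. coli columns are low and the PBS columns high by the choice of members, and the mutant columns hold both colours.

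On the mutant arrays the members stood between the wild type groups when taken as a set. Their median signal was 525.3, 482.0 and 567.6 units on the Relish arrays, 514.4, 538.8 and 547.6 on the Dif arrays and 675.2, 631.0 and 649.0 on the dorsal arrays. The wild type arrays read 448.0, 326.5 and 328.2 with E. coli and 748.1, 710.8 and 675.5 given PBS. All 9 mutant medians lay above those of wild type given E. coli and below those given PBS, and the dorsal arrays stood above those of Relish and Dif. The choice of members fixed the wild type values as low and high, so this order between mutants and wild type is a description. Over all probe sets tested the array medians were 338.4 to 457.4 units.

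**Figure D2:**
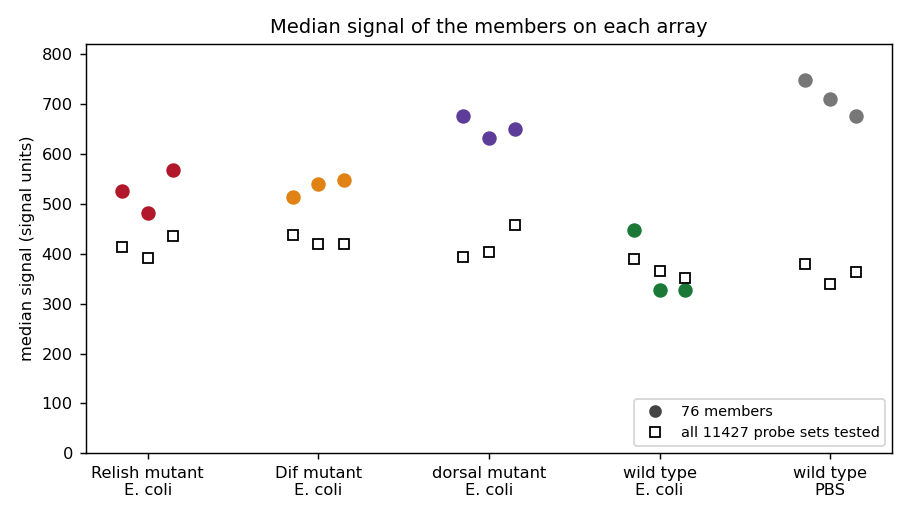
Filled circles give the median signal of the 76 members on each array and open squares that of all 11427 probe sets tested, in signal units on a linear axis that starts at 0. The member medians of the dorsal mutant (631.0 to 675.2) lie above those of the Relish mutant (482.0 to 567.6) and the Dif mutant (514.4 to 547.6), and every mutant array lies between the wild type groups.

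Gene by gene the members did not keep that intermediate place. Of the 76, the mean signal lay above the wild type PBS mean for 22 in the Relish mutant, 23 in the Dif mutant and 36 in the dorsal mutant. It lay between both wild type means for 38, 34 and 34 members in these mutants, and below the wild type E. coli mean for 16, 19 and 6. The 3 mutants took the same place for 23 members, with 8 above both wild type means, 11 between them and 4 below both. The 8 above both were CG15642, CG10560, CG14985, CG15005, CG12951, CG13857, CG11912 and CG17129, and the 4 below both were CG9928, CG10621, CG16898 and CG6195.

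Against wild type given E. coli alone, the members' median log2 difference was 0.51 in the Relish mutant, 0.41 in the Dif mutant and 0.70 in the dorsal mutant, while that of all probe sets tested was 0.09, 0.11 and 0.10. Against wild type given PBS it was -0.35, -0.42 and -0.06 in the 3 mutants, beside 0.09, 0.13 and 0.12 over all. These values share the wild type arrays that chose the members, which pushes the first set up and the second down, and they were not tested. In the equally weighted mean of both wild type groups the choice enters with opposite signs. These need not cancel, since the PBS minimum of the rule acts on the PBS arrays alone. Against that mean, the members' median was 0.12 in the Relish mutant, -0.01 in the Dif mutant and 0.25 in the dorsal mutant. All probe sets had medians of 0.09, 0.12 and 0.12 in these comparisons. After quantile normalization, which brought the medians of all probe sets to between 0.00 and 0.01, the members' medians were -0.004, -0.12 and 0.20, so that of Relish changed sign.

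The 3 mutants were compared with each other first, since these differences use no wild type array. A gene is called at a limma p under 0.05 after Benjamini-Hochberg adjustment over the 11427 probe sets. Between the Relish and Dif mutants 1 of the 76 members was called, higher in Relish, with a background over all probe sets of 1.15%, or 0.656% higher and 0.49% lower. Between the Relish and dorsal mutants 8 were called, 1 higher and 7 lower in Relish, with a background of 3.05%, or 1.57% higher and 1.48% lower. Between the Dif and dorsal mutants 14 were called, 2 higher and 12 lower in Dif, with a background of 5.18%, or 2.34% higher and 2.84% lower.

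The calls against the dorsal mutant ran mostly one way. Members lower in Relish than in dorsal made up 9.21% of the 76, against 1.48% of all probe sets tested and 2.45% of the 1963 CG probe sets with a PBS mean of at least 300. Members lower in Dif than in dorsal made up 15.8%, against 2.84% of all and 5.04% of those 1963. The median log2 difference of the members was -0.24 for Relish against dorsal and -0.21 for Dif against dorsal, beside -0.01 and 0.03 over all probe sets, and 0.02 for Relish against Dif, beside -0.03. Both comparisons share the dorsal arrays. The wild type arrays enter the pooled estimate of spread, which is not independent of a choice of members whose wild type groups do not overlap.

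These counts were smaller when no wild type array entered the spread. With only the 9 mutant arrays fitted, an alternative chosen after seeing the data, 1 member was called between Relish and dorsal (1.32% of the 76, against 1.11% of all probe sets). Between Dif and dorsal 7 were called in that fit, 1 higher and 6 lower in Dif (9.21%, against 2.57%). With only the 6 arrays of both groups fitted, 2 members were called between Relish and dorsal (2.63%, against 0.621%) and 3 between Dif and dorsal (3.95%, against 1.41%). Dorsal replicates 1 and 2 carry the same number in their titles. These arrays correlated at 0.9319, against 0.8835 and 0.8806 with dorsal replicate 3. In wild type given E. coli the pair with 1 number correlated at 0.9292, against 0.9287 and 0.9058 for the other pairs. Whether such arrays share a source was not tested. With arrays of 1 title number averaged, 1 member was called between Relish and dorsal and 2 between Dif and dorsal (1.32% and 2.63%, against 0.761% and 1.33%). The share of members called between Relish and dorsal was thus near that of all probe sets with only the 9 mutant arrays fitted.

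The counts also depend on single arrays, and the shares of all probe sets called without each array are not given here. That of Relish against Dif was 2 or 3 without Dif replicate 3 or Relish replicate 2 or 3. Without any 1 array of either group, the Relish against dorsal count was 1 to 5. The Dif against dorsal count was 5 without Dif replicate 2, 9 without Dif replicate 3, 8 without dorsal replicate 1 and 7 without dorsal replicate 2. The summed signal of 8 tested salivary gland genes of 10 listed was 45411 to 413834 units in Relish, 66198 to 385287 in Dif and 322089 to 585713 in dorsal, and 17878 to 252565 and 77259 to 190206 in wild type given E. coli and PBS. Of 7 fat body genes, 4 were tested, with sums of 179304 to 310873 in Relish, 167289 to 322775 in Dif, 252698 to 372620 in dorsal, and 162770 to 199182 and 138106 to 192204 in wild type given E. coli and PBS. For 3 tested cuticle genes of 11 listed the sums were 57724 to 63609 in Relish, 71680 to 88492 in Dif, 45841 to 48318 in dorsal, and 58327 to 81640 and 63960 to 81521 in wild type given E. coli and PBS. For 8 tested muscle genes of 12 listed they were 282520 to 367072 in Relish, 339903 to 375441 in Dif and 268157 to 297533 in dorsal, and 276788 to 371984 and 220677 to 295332 in wild type given E. coli and PBS. For the cuticle and muscle genes the dorsal arrays lay below all Dif arrays. No gene of these lists is a member or read 0, and the part these tissues have in the calls was not tested.

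Against the mean of both wild type groups, 5 members were called for the Relish mutant, 3 higher and 2 lower, with a background of 2.28%, or 0.945% higher and 1.33% lower. For the Dif mutant 11 were called, 4 higher and 7 lower, with a background of 3.95%, or 1.79% higher and 2.16% lower. For the dorsal mutant 8 were called, 6 higher and 2 lower, with a background of 4.79%, or 2.15% higher and 2.63% lower. Of the 76 members, 3.95% were higher and 2.63% lower in Relish, against 1.48% and 2.24% of the 1963 CG probe sets with a PBS mean of at least 300. For Dif it was 5.26% higher and 9.21% lower, against 2.45% and 3.87% of the 1963, and for dorsal 7.89% higher and 2.63% lower, against 3.77% and 5.35%. These comparisons use the wild type arrays that chose the members, both in the difference and in the estimate of spread. Their shares are thus not independent of the choice. In all, 27 members were called in at least 1 of the 6 comparisons, 17 of them between mutants and 19 against the wild type mean. The shares of all probe sets called in such joint counts were not counted, so these numbers are a description. These members had 47 calls over the 6 comparisons, of which 12 held without each array in turn. Of the 47, 8 held under every alternative setting as well. The Relish count was 1 without Relish replicate 1 and 3 without replicate 3. The Dif count was 2 without Dif replicate 2 and 6 or 7 without any other of its arrays or those of wild type, except wild type E. coli replicate 1. The dorsal count was 5 without wild type PBS replicate 2 or 3 or wild type E. coli replicate 3. No shares of all probe sets are set beside these counts without an array.

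Heat shock transcripts stood apart on the Dif arrays, as was noticed after the values were seen. Hsp26, the gene of a small heat shock protein, read 862.5, 237.1 and 555.2 units in Relish, 26643.8, 16333.1 and 83792.2 in Dif and 882.7, 652.3 and 5274.1 in dorsal, against 1667.7, 1791.6 and 1035.9 in wild type given E. coli and 1051.7, 974.2 and 1040 given PBS. All 3 Dif arrays lay above all 12 others, and dorsal replicate 3 was the next highest. Hsp68, the gene of a heat shock chaperone, read 1150.4, 545.7 and 849.7 in Relish, 1413.1, 4878.3 and 30283.3 in Dif and 357, 275.2 and 2892.4 in dorsal, against 973.2, 199.3 and 455.3 in wild type given E. coli and 580.8, 254.5 and 462.1 given PBS. The part of heat shock in the calls of Dif was not tested.

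Among the peptidases, CG11912 and CG12951 are predicted serine proteases of the trypsin type, numbered SP140 and SP87. CG11912 read 22856.2, 16825.0 and 13851.6 signal units in Relish, 27947.0, 9433.4 and 11611.4 in Dif and 32642.8, 34251.2 and 40404.6 in dorsal, against 7983.0, 5083.5 and 8892.8 in wild type given E. coli and 13185.3, 14832.4 and 10236.1 given PBS. The dorsal arrays lay above all others, and every mutant array lay above the wild type E. coli arrays. By limma the dorsal mutant was higher than the wild type mean by a log2 difference of 1.90 (SE 0.28, adjusted p = 7.29e-04), and this call held under all 17 alternatives. Dif stood below dorsal, at -1.29 (SE 0.33, adjusted p = 0.0297), a call that 5 of the 6 arrays of these groups each carried, since it was lost without Dif replicate 2 or 3 or any 1 dorsal array, and with only both groups or only the 9 mutant arrays fitted or with arrays of 1 title number averaged (adjusted p 0.00155 to 0.152 over 15 alternatives).

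CG12951 read 1891.1, 584.7 and 821.5 units in Relish, 4463.9, 1518.9 and 458.3 in Dif and 2848.7, 2123.3 and 4470.8 in dorsal, against 580.8, 705.9 and 492.3 in wild type given E. coli and 1174.2, 790.5 and 1181.3 given PBS. The dorsal arrays lay above every wild type array, whereas the ranges of Relish and Dif overlapped with both wild type groups. The dorsal mutant was higher than the wild type mean by 1.84 (SE 0.47, limma adjusted p = 0.0307). That call was lost without dorsal replicate 1 or 3, wild type PBS replicate 2 or 3 or wild type E. coli replicate 3, and with arrays of 1 title number averaged (adjusted p 0.00152 to 0.179 over 17 alternatives).

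CG15255, a predicted astacin-type metalloprotease, read 558.6, 823.1 and 624.2 units in Relish, 266.7, 506.6 and 378.5 in Dif and 1314.9, 906.3 and 642.2 in dorsal, against 835.3, 751.4 and 600 in wild type given E. coli and 1096.0, 912.6 and 1366.2 given PBS. The 3 Dif values lay below all 12 others. In Dif the difference was -1.14 from dorsal (SE 0.29, limma adjusted p = 0.0311) and -1.11 from the wild type mean (SE 0.25, adjusted p = 0.0189). Both calls were lost without Dif replicate 1 or 3 and with arrays of 1 title number averaged, and the first also without dorsal replicate 1 or 2 and with only both groups or only the 9 mutant arrays fitted (adjusted p 0.0136 to 0.140 over both). Named after its values were seen, CG6067, a serine protease homologue numbered SPH254, passed none of the 6 tests, nor did the aminopeptidase CG8773.

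Transporters formed a second group. CG17751, a predicted membrane transporter, read 2286.9, 1781.1 and 1605.5 units in Relish, 772.2, 619.3 and 555.0 in Dif and 1271.3, 1519.0 and 1426.6 in dorsal, against 639.4, 410.9 and 662.9 in wild type given E. coli and 1327.7, 803.6 and 1077.7 given PBS. The Relish arrays lay above every other array, and the Dif arrays lay in or near the range of wild type given E. coli. It was the 1 member called between Relish and Dif, at a log2 difference of 1.43 (SE 0.25, limma adjusted p = 0.00649), a call kept under all 15 alternatives. Relish was also higher than the wild type mean, by 1.20 (SE 0.22, adjusted p = 0.00446), and that call was lost without Relish replicate 1 (adjusted p 0.00369 to 0.0506 over 17 alternatives).

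The other calls of CG17751 were weaker under the alternatives. Dif differed from dorsal by -1.03 (SE 0.25, limma adjusted p = 0.0228), and that call was lost without Dif replicate 2 or 3 or dorsal replicate 1 or 2, and with only both groups fitted or with arrays of 1 title number averaged (adjusted p 0.0130 to 0.0800 over 15 alternatives). Dorsal differed from the wild type mean by 0.80 (SE 0.22, adjusted p = 0.0403), and that one was lost without any 1 dorsal array, wild type PBS replicate 2 or 3 or wild type E. coli replicate 2 or 3, and with only the groups compared fitted or with arrays of 1 title number averaged (adjusted p 0.0312 to 0.226 over 17 alternatives).

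Markers of hemocytes and Malpighian tubules were highest in the Relish mutant, also the highest group for CG17751. The summed signal of 7 tested hemocyte genes of 8 listed was 28357 to 34397 units in Relish, 13357 to 14994 in Dif and 13879 to 17287 in dorsal, against 6929 to 11111 in wild type given E. coli and 8916 to 13970 given PBS. For 3 of 4 Malpighian tubule genes the sums were 2340 to 2609 in Relish, 1508 to 1833 in Dif and 1581 to 1769 in dorsal, against 1345 to 1602 in wild type given E. coli and 1487 to 2028 given PBS. The Relish arrays lay above all others in both lists, no gene of which is a member or read 0, and their part in the calls of Relish was not tested. The sums of 26 tested midgut genes of 28 listed overlapped between all groups, with 1363451 to 1694606 in Relish. Those of 10 tested testis genes were 12312 to 16122 in Relish, 8102 to 13440 in Dif and 11795 to 18414 in dorsal. In wild type the testis sums were 6726 to 17743 with E. coli and 6964 to 11274 given PBS.

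CG3036, a predicted transporter of the major facilitator type, read 941.5, 1534.4 and 790.8 units in Relish, 982.8, 515.7 and 672.2 in Dif and 2832.4, 2299.2 and 1585.0 in dorsal, against 1020.0, 1807.4 and 1194.0 in wild type given E. coli and 2414.3, 2724.5 and 2425.6 given PBS. The Dif arrays lay below all wild type and dorsal arrays. The difference of Dif from dorsal was -1.53 (SE 0.29, limma adjusted p = 0.00613) and held without each array, though not with arrays of 1 title number averaged (adjusted p 0.00335 to 0.0576 over 15 alternatives). From the wild type mean Dif differed by -1.28 (SE 0.25, adjusted p = 0.00876), which was lost without Dif replicate 2 (adjusted p 0.00773 to 0.0670 over 17 alternatives).

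The ATP-binding cassette transporters CG10505 and CG9664 differed between mutants in opposite directions. CG10505, of a subfamily whose members export conjugates and metals, read 1036.1, 514.3 and 610.9 units in Relish, 657.0, 1455.8 and 1491.8 in Dif and 413.6, 455.3 and 471.1 in dorsal, against 343.9, 304.0 and 356.7 in wild type given E. coli and 1557.3, 711.2 and 1332.6 given PBS. All mutant arrays lay above the wild type E. coli arrays, and the dorsal arrays lay below those given PBS. Dif was higher than dorsal by 1.20 (SE 0.34, limma adjusted p = 0.0487), a call lost without Dif replicate 2 or 3 or any 1 dorsal array, at a pseudocount of 40, without a filter, with the replicate block, and with only both groups or only the 9 mutant arrays fitted or with arrays of 1 title number averaged (adjusted p 0.0120 to 0.179 over 15 alternatives).

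CG9664 read 940.6, 814.9 and 1041.4 units in Relish, 945.4, 700.5 and 810.5 in Dif and 1750.6, 1742.0 and 1796.2 in dorsal, against 1015.7, 690.4 and 959.6 in wild type given E. coli and 2245.2, 1470.9 and 1463.0 given PBS. Relish and Dif overlapped with wild type given E. coli, and dorsal lay within the PBS range. Set against dorsal, Dif differed by -1.04 (SE 0.23, limma adjusted p = 0.0149), lost without Dif replicate 2 and with only both groups fitted or with arrays of 1 title number averaged (adjusted p 0.00743 to 0.0702 over 15 alternatives). Relish was lower than dorsal, at -0.87 (SE 0.23, adjusted p = 0.0487), lost without any 1 of the 6 arrays, at a pseudocount of 40, without a filter, and with only both groups or only the 9 mutant arrays fitted or with arrays of 1 title number averaged (adjusted p 0.0361 to 0.172 over 15 alternatives). CG6356, which carries the organic cation and carnitine transporter synonyms OCTN2 and Slc22a16, read 180.6, 126.8 and 218.5 in Relish, 228.2, 179.1 and 159.1 in Dif and 185.3, 913.3 and 775.2 in dorsal. In wild type it read 137.9, 137.4 and 95.5 with E. coli and 633.9, 435.5 and 172.4 given PBS, and it was not called.

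Another group was noticed after the values were seen. RefSeq gives 7 of the 76 members a synonym made of Dro and a number, the naming of the ecdysteroid kinase-like family. These proteins are predicted to phosphorylate small molecules, among them steroid hormones in some insects and possibly plant toxins. RefSeq has 51 genes with such a synonym, and 32 probe sets with a single symbol from this family were tested, 28 of them under a CG symbol. The 7 members were CG10513, CG10514, CG11892, CG13659, CG10560, CG16898 and CG9259. Of the 25 tested probe sets of the family that are not members, 17 had a lower mean with E. coli than given PBS in wild type, with a median PBS to E. coli ratio of 1.16. Over all probe sets tested the median log2 difference of these groups was 0.00, and the share with a lower mean was not counted. The family was noticed among genes chosen as lower with E. coli, so these counts are a description. Genes of this family resemble each other, so shared probe sequence makes single values uncertain.

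Of the 7 family members, 5 lie on chromosome arm 3R within a run of 20 consecutive protein-coding genes that all carry a Dro synonym in the gene order of RefSeq Release 6. CG10513, CG10514 and CG11892 are direct neighbours and the only adjacent genes among the 76. A further 8 genes lie between CG11892 and CG13659, and 7 between CG13659 and CG10560. In this run 13 genes had a tested probe set. Of the 8 that are not members 4 had a lower wild type mean with E. coli than given PBS, with no background counted. One of these 4, CG11893, averaged 118.5 units after E. coli and 273.4 given PBS, a ratio of 2.31, but its PBS mean was under the minimum of the rule.

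The neighbouring genes did not behave alike in the mutants. CG10513 read 3322.0, 1745.5 and 3267.8 units in Relish, 1550.8, 1154.6 and 1094.3 in Dif and 1531.6, 1730.8 and 1752.5 in dorsal, against 1322.8, 633.2 and 943.0 in wild type given E. coli and 1663.0, 1787.9 and 1522.2 given PBS. A pair of Relish arrays stood far above all other arrays. Relish was higher than the wild type mean by 1.06 (SE 0.24, limma adjusted p = 0.0205), a call lost without Relish replicate 1 or 3 or wild type PBS replicate 3, and with arrays of 1 title number averaged (adjusted p 0.00717 to 0.145 over 17 alternatives).

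CG10514 read 1246.9, 1052.2 and 682.7 units in Relish, 82.2, 68.6 and 1243.5 in Dif and 2044.7, 2628.7 and 1386.8 in dorsal, against 508.9, 225.0 and 411.1 in wild type given E. coli and 1602.0, 783.1 and 1454.1 given PBS. Dif replicates 1 and 2 were the lowest of the 15 arrays, while Dif replicate 3 stood with the other mutants. Dif was lower than dorsal, at -2.68 (SE 0.59, limma adjusted p = 0.0151), a call lost without Dif replicate 1 or 2 or dorsal replicate 1 or 2, and with only both groups or only the 9 mutant arrays fitted or with arrays of 1 title number averaged (adjusted p 9.16e-05 to 0.102 over 15 alternatives). Without Dif replicate 3 the difference was -3.71.

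CG11892 read 1556.6, 1291.2 and 1181.7 units in Relish, 399.0, 263.5 and 936.4 in Dif and 2333.7, 2262.4 and 1978.3 in dorsal, against 583.9, 45.5 and 263.0 in wild type given E. coli and 1196.3, 956.4 and 663.1 given PBS. The dorsal arrays lay above every other array, and the Relish arrays lay above those of Dif and of wild type given E. coli. Dorsal was higher than the wild type mean by 2.04 (SE 0.40, limma adjusted p = 0.00623), a call that held without each array but not with arrays of 1 title number averaged (adjusted p 0.00103 to 0.0788 over 17 alternatives). The Dif signal was below that of dorsal, at -2.04 (SE 0.47, adjusted p = 0.0170), lost without Dif replicate 2 or dorsal replicate 1 or 2, and with arrays of 1 title number averaged (adjusted p 0.00955 to 0.0907 over 15 alternatives).

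CG13659 and CG10560, further along the run, had their highest mutant means in Dif. CG13659 read 427.8, 327.5 and 354.9 units in Relish, 518.0, 673.0 and 1097.3 in Dif and 403.6, 330.0 and 373.4 in dorsal, against 234.2, 206.0 and 210.1 in wild type given E. coli and 812.0, 1189.6 and 507.5 given PBS. All mutant arrays lay above wild type given E. coli, and no comparison called it. CG10560 read 419.3, 615.1 and 453.3 in Relish, 900, 714.4 and 1471.7 in Dif and 751.4, 485.4 and 112.3 in dorsal, against 327.7, 208.8 and 193.6 in wild type given E. coli and 414.4, 417.5 and 338.1 given PBS. The Relish and Dif arrays lay above all wild type arrays. Dif was higher than the wild type mean by 1.46 (SE 0.37, limma adjusted p = 0.0320), a call lost without any 1 Dif or wild type PBS array or wild type E. coli replicate 2 or 3, after quantile normalization and with arrays of 1 title number averaged (adjusted p 0.0109 to 0.138 over 17 alternatives).

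CG9259 read 6649.2, 5298.0 and 5753.3 units in Relish, 3437.6, 3147.4 and 4208.6 in Dif and 6078.0, 6675.6 and 3390.0 in dorsal, against 2262.7, 2460.4 and 2902.7 in wild type given E. coli and 3660.3, 3442.0 and 4996.0 given PBS. The Relish arrays lay above every wild type array. Relish was higher than the wild type mean by 0.87 (SE 0.21, limma adjusted p = 0.0328), a call lost without any 1 Relish array, wild type PBS replicate 1 or 2 or wild type E. coli replicate 1 or 2, and with arrays of 1 title number averaged (adjusted p 0.0132 to 0.166 over 17 alternatives). Over the 9 mutant arrays, after each group's mean was removed, the median pairwise correlation among the 7 family members was 0.50, beside 0.015 over all 76 members and 0.0051 over 3893 CG probe sets tested. This is a description over 9 arrays of 3 groups, and genes read on the same array share its RNA pool. Among the Dif arrays, replicate 3 was highest for each of the 7 but CG10513, and it was also highest for Hsp26 and Hsp68. The part of this array and of shared probe sequence in the correlation was not tested.

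**Figure D3:**
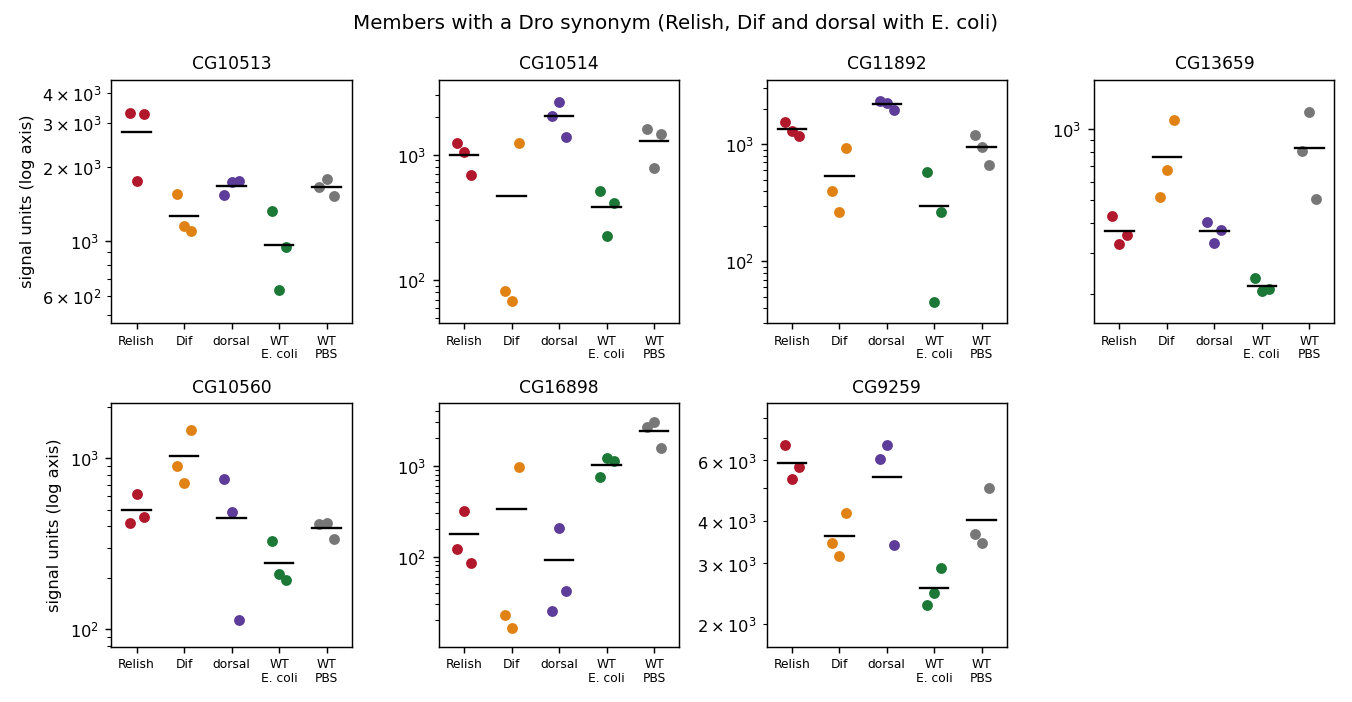
Each panel shows 1 of the 7 members with a Dro synonym, with points for single arrays and bars for group means, in signal units on a log axis whose range differs between panels. CG10513, CG10514 and CG11892 are direct neighbours, yet CG10513 is highest in the Relish mutant and CG11892 in the dorsal mutant. CG16898 is below every wild type array on 8 of the 9 mutant arrays.

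Signals of 4 members were lower in all 3 mutants than in wild type even with bacteria, judged by group means. The share of all probe sets with such means was not counted, so the number 4 is a description. CG16898, of the kinase-like family, read 122.2, 321.1 and 84.8 units in Relish, 22.7, 16.6 and 972.3 in Dif and 25.2, 207.0 and 41.4 in dorsal, against 743.7, 1215.0 and 1135.8 in wild type given E. coli and 2638.4, 2993.6 and 1575.2 given PBS. All mutant arrays but Dif replicate 3 lay below every wild type array. From the wild type mean the difference was -2.77 in Relish (SE 0.59, limma adjusted p = 0.0147), -2.89 in Dif (SE 0.59, adjusted p = 0.0104) and -3.39 in dorsal (SE 0.59, adjusted p = 0.00217). The dorsal call held under all 17 alternatives. The Relish call was lost without Relish replicate 1 or 3 or with arrays of 1 title number averaged (adjusted p 1.68e-04 to 0.0901) and the Dif call without Dif replicate 1 or 2 (adjusted p 7.27e-05 to 0.0802), the Dif difference being -4.02 without Dif replicate 3.

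CG9928, for which no role is stated here, read 232.5, 107.1 and 27.3 units in Relish, 64.7, 28.0 and 17.6 in Dif and 10.2, 10.1 and 116.4 in dorsal, against 593.8, 879.1 and 992.7 in wild type given E. coli and 1030.8, 1510.9 and 1878.4 given PBS. All 9 mutant arrays lay below all 6 wild type arrays. From the wild type mean the log2 difference was -2.65 in Relish (SE 0.37, limma adjusted p = 4.61e-04), -3.33 in Dif (SE 0.37, adjusted p = 4.08e-05) and -3.31 in dorsal (SE 0.37, adjusted p = 5.31e-05). These 3 calls held under all 17 alternatives. Arrays of all 3 mutants below those of wild type given E. coli, with no overlap, were found for CG9928 alone among the members. For single mutants 7.71% (Relish), 8.05% (Dif) and 8.45% (dorsal) of all probe sets did so. The share in all 3 together was not counted.

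CG10621, a predicted homocysteine S-methyltransferase, read 2250.2, 1755.9 and 1675.2 units in Relish, 1836.6, 930.0 and 1598.8 in Dif and 2325.8, 2101.4 and 1327.2 in dorsal, against 2160.7, 2418.2 and 2718.1 in wild type given E. coli and 4742.3, 3318.3 and 4341.2 given PBS. The Dif arrays lay below all wild type arrays, and those of Relish and dorsal overlapped with wild type given E. coli. The Dif difference from the wild type mean was -1.12 (SE 0.23, limma adjusted p = 0.00952), lost without Dif replicate 2 (adjusted p 0.00784 to 0.0765 over 17 alternatives). CG6195, a predicted GTP-binding protein, read 199.1, 154.2 and 203.6 in Relish, 160.1, 1047.5 and 340.9 in Dif and 416.0, 259.0 and 629.7 in dorsal, against 644.3, 376.1 and 532.6 in wild type given E. coli and 759.5, 711.9 and 880.4 given PBS. Its Relish arrays lay below all wild type arrays, its Dif replicate 2 above all of them, and no comparison called it. Its mean in Dif, 516.2, was barely below that of wild type given E. coli, 517.7.

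**Figure D4:**
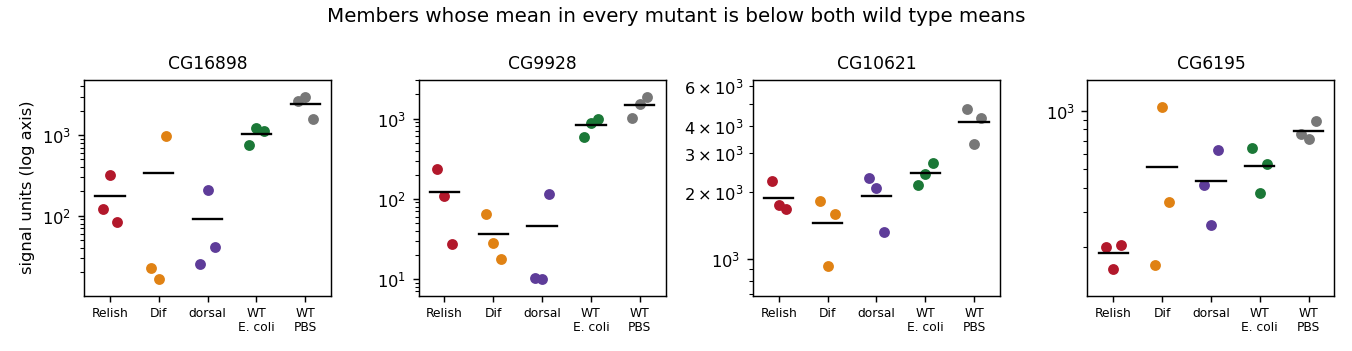
Panels show the 4 members whose mean was lower in every mutant than in both wild type groups, with points for single arrays and bars for group means, in signal units on a log axis. All 9 mutant values of CG9928 (10.1 to 232.5) lie below its wild type values (593.8 to 1878.4), while Dif replicate 3 of CG16898 (972.3) and Dif replicate 2 of CG6195 (1047.5) reach wild type levels.

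The count of arrays without overlap gave a second view of the members. Besides CG9928 and CG16898, the Relish arrays lay below all wild type E. coli arrays for CG10311 and CG6195, a total of 4 of 76, where 7.71% of all probe sets did so. In the Dif mutant there were 7, where 8.05% did, and in the dorsal mutant 3, where 8.45% did. All arrays above all wild type PBS arrays were found for 5 members in Relish (background 12.7%), 7 in Dif (16%) and 9 in dorsal (14.5%). In the directions that the choice of members favours, all arrays lay above wild type given E. coli for 29 members in Relish (11.7%), 29 in Dif (14.4%) and 40 in dorsal (13.3%), and below wild type given PBS for 24 (7.94%), 22 (9.03%) and 12 (8.43%).

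Among enzymes of other kinds, a phosphatase and an aminotransferase were lower in Dif than in dorsal. CG10417, a predicted protein phosphatase with the synonym PP2Cg, read 416.5, 540.1 and 577.9 units in Relish, 368.1, 467.4 and 455.0 in Dif and 1073.9, 1483.6 and 1035.2 in dorsal, against 549.6, 655.2 and 563.0 in wild type given E. coli and 872.9, 982.2 and 866.3 given PBS. The dorsal arrays lay above all others and the Dif arrays below every wild type array. Dif stood below dorsal, at -1.31 (SE 0.24, limma adjusted p = 0.00401), which held without each array but missed the threshold when only both groups were fitted (adjusted p 0.00259 to 0.0537 over 15 alternatives). Relish was lower than dorsal, at -1.10 (SE 0.24, adjusted p = 0.0187), lost without Relish replicate 1 or 2 or dorsal replicate 2, and with only both groups or only the 9 mutant arrays fitted or with arrays of 1 title number averaged (adjusted p 0.0116 to 0.106 over 15 alternatives).

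CG8745, a predicted aminotransferase, read 398.9, 333.1 and 1254.1 units in Relish, 522.7, 114.6 and 100.8 in Dif and 998.6, 1022.9 and 1386.6 in dorsal, against 508.6, 388.2 and 635.9 in wild type given E. coli and 1551.8, 691.8 and 906.6 given PBS. Dif replicates 2 and 3 were lower than every other array, and dorsal lay within the PBS range. Set against dorsal, Dif differed by -2.12 (SE 0.47, limma adjusted p = 0.0151), lost without Dif replicate 2 or 3 and with only both groups or only the 9 mutant arrays fitted or with arrays of 1 title number averaged (adjusted p 0.00214 to 0.0754 over 15 alternatives). It was also lower than the wild type mean, at -1.52 (SE 0.41, adjusted p = 0.0451), lost without Dif replicate 2 or 3, wild type PBS replicate 1 or 3 or any 1 wild type E. coli array, at a pseudocount of 160, without a filter and with arrays of 1 title number averaged (adjusted p 0.00843 to 0.182 over 17 alternatives).

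Several of the clearest differences between mutants came from genes with no role stated here. CG5770 read 1699.9, 1119.9 and 2166.3 units in Relish, 3695.4, 2578.2 and 4067.5 in Dif and 8141.5, 7600.7 and 8419.7 in dorsal, against 1254.8, 1698.6 and 2138.1 in wild type given E. coli and 3281.8, 2306.8 and 2396.5 given PBS. The mutant groups did not overlap with each other: Relish lay around wild type given E. coli, Dif around and above wild type given PBS, and dorsal above all other arrays. Relish was lower than dorsal, at -2.27 (SE 0.26, limma adjusted p = 1.23e-04), and dorsal was higher than the wild type mean by 1.90 (SE 0.22, adjusted p = 7.92e-05). Both calls held under every alternative. Dif was lower than dorsal, at -1.23 (SE 0.26, adjusted p = 0.0108), lost without Dif replicate 2 or with arrays of 1 title number averaged (adjusted p 0.00572 to 0.0640 over 15 alternatives).

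CG10953 had the highest PBS mean of the members. It read 24640.1, 38802.9 and 22133.9 units in Relish, 29195.5, 42721.3 and 36553.2 in Dif and 11898.4, 15798.5 and 3684.0 in dorsal, against 6821.6, 12488.2 and 10241.7 in wild type given E. coli and 13645.9, 18092.6 and 12758.1 given PBS. The Relish and Dif arrays lay above all wild type and dorsal arrays, the reverse of most members called between mutants. Dif was higher than dorsal by 2.00 (SE 0.40, limma adjusted p = 0.00762), which held without each array but not with only both groups fitted (adjusted p 0.00191 to 0.0652 over 15 alternatives).

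Relish was higher than dorsal by 1.63 for CG10953 (SE 0.40, limma adjusted p = 0.0356), lost without Relish replicate 1 or 2 or dorsal replicate 3, and with only both groups or only the 9 mutant arrays fitted or with arrays of 1 title number averaged (adjusted p 0.0111 to 0.151 over 15 alternatives). Without dorsal replicate 3, the lowest of the 15 arrays, the difference was 1.01. Dif was higher than the wild type mean by 1.59 (SE 0.34, adjusted p = 0.0142), lost without Dif replicate 2 or 3 (adjusted p 0.00120 to 0.0804 over 17 alternatives).

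CG4269 read 73.1, 48.8 and 262.2 units in Relish, 401.3, 26.6 and 389.5 in Dif and 1351.7, 1124.8 and 751.9 in dorsal, against 187.1, 121.2 and 14.4 in wild type given E. coli and 633.7, 593.8 and 310.9 given PBS. The dorsal arrays lay above all others, and the Relish arrays lay below those given PBS. Relish was lower than dorsal, at -2.58 (SE 0.56, limma adjusted p = 0.0189), lost without Relish replicate 1 or 2 or dorsal replicate 1 or 2, with only the 9 mutant arrays fitted or with arrays of 1 title number averaged (adjusted p 0.00942 to 0.0951). The Dif signal was below that of dorsal, at -1.97 (SE 0.56, adjusted p = 0.0490) and dorsal higher than the wild type mean by 1.85 (SE 0.48, adjusted p = 0.0343). The call of Dif against dorsal was lost without Dif replicate 2 or 3 or any 1 dorsal array, at a pseudocount of 40, without a filter, and with only both groups or only the 9 mutant arrays fitted or with arrays of 1 title number averaged (adjusted p 0.0285 to 0.219). That against the wild type mean was lost without any 1 dorsal array, wild type PBS replicate 2 or 3 or wild type E. coli replicate 2 or 3, at a pseudocount of 40 or with arrays of 1 title number averaged (adjusted p 0.0108 to 0.262).

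**Figure D5:**
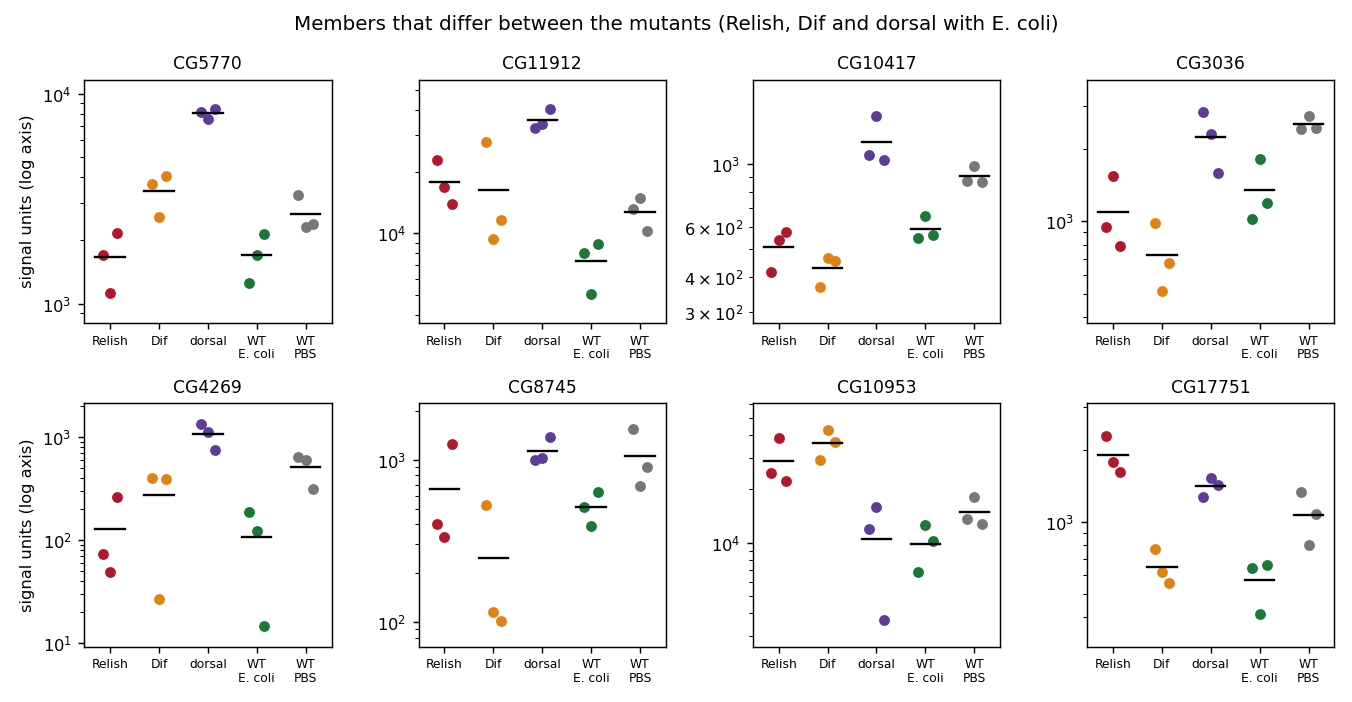
Panels show 8 members called between mutants, with points for single arrays and bars for group means, in signal units on a log axis whose range differs between panels. CG5770, CG11912, CG10417, CG3036, CG4269 and CG8745 have their highest mutant mean in dorsal, CG10953 in Dif and CG17751 in Relish.

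CG9616 read 621.1, 525.8 and 562.8 units in Relish, 510.8, 369.8 and 414.3 in Dif and 894.1, 995.1 and 841.8 in dorsal, against 730.3, 543.1 and 582.8 in wild type given E. coli and 1130.2, 818.5 and 945.5 given PBS. Dif lay below all wild type arrays, and dorsal within or near the PBS range. Dif stood below dorsal, at -0.96 (SE 0.24, limma adjusted p = 0.0251), lost without Dif replicate 2 or 3 or dorsal replicate 1 or 2, and with only both groups or only the 9 mutant arrays fitted or with arrays of 1 title number averaged (adjusted p 0.0149 to 0.119 over 15 alternatives).

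CG7968 and CG13255 were among the 5 members with the highest PBS means. CG7968 read 2547.4, 3013.4 and 2131.7 units in Relish, 1336.8, 1700.1 and 2095.7 in Dif and 5032.9, 4007.7 and 1459.2 in dorsal, against 2959.0, 2724.6 and 3109.3 in wild type given E. coli and 4496.9, 4264.6 and 4661.3 given PBS. The Dif arrays lay below every wild type array, and the difference from the wild type mean was -1.07 (SE 0.28, limma adjusted p = 0.0381), lost without any 1 of the 9 arrays compared, after quantile normalization and with arrays of 1 title number averaged (adjusted p 0.00387 to 0.153). CG13255 read 3120.5, 2510.6 and 2480.1 in Relish, 3727.9, 2313.3 and 3155.9 in Dif and 4442.0, 5047.9 and 4909.7 in dorsal, against 1952.8, 2921.5 and 2025.9 in wild type given E. coli and 4365.1, 4705.0 and 4062.4 given PBS. Relish lay below dorsal without overlap, at -0.82 (SE 0.21, adjusted p = 0.0447), lost without any 1 of the 6 arrays, without a filter, and with only both groups or only the 9 mutant arrays fitted or with arrays of 1 title number averaged (adjusted p 0.0394 to 0.150).

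The remaining 4 called members were chosen for naming after their values were seen. CG11885 read 309.5, 259.5 and 370.6 units in Relish and 882.4, 959.8 and 1173.8 in dorsal, and CG12159 read 309.8, 605.1 and 139.2 in Relish and 1000.3, 1211.5 and 1226.3 in dorsal. In both genes the Relish and dorsal arrays did not overlap. Relish was lower than dorsal, at -1.47 for CG11885 (SE 0.38, limma adjusted p = 0.0455) and at -1.65 for CG12159 (SE 0.41, adjusted p = 0.0397). The call of CG11885 was lost without any 1 of the 6 arrays, and that of CG12159 without any 1 dorsal array or Relish replicate 1 or 3 (adjusted p 0.0275 to 0.153 over both). Both were also lost without a filter and with only both groups or only the 9 mutant arrays fitted or with arrays of 1 title number averaged, and that of CG11885 at a pseudocount of 40.

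CG14985 read 822.2, 1020.4 and 1400.1 units in Dif, against 247.5, 440.4 and 104.5 in wild type given E. coli and 615.9, 700.6 and 483.9 given PBS. CG15005 read 539.6, 865.0 and 501.0 in Dif, against 288.0, 70.0 and 125.5 in wild type given E. coli and 446.7, 317.5 and 299.8 given PBS. For both genes the Dif arrays lay above all wild type arrays, and so did the dorsal arrays of CG15005 (604.3, 540.9 and 481.7). The means of all 3 mutants lay above both wild type means for both genes, and neither gene was called between mutants. Dif was higher than the wild type mean by 1.301 for CG14985 (SE 0.35, limma adjusted p = 0.0444) and by 1.17 for CG15005 (SE 0.31, adjusted p = 0.0453). Each call was lost without any 1 Dif or wild type PBS array, and also without wild type E. coli replicate 1 or 3 for CG14985 and 2 or 3 for CG15005 (adjusted p 0.0198 to 0.189 over both). Both were also lost without a filter, after quantile normalization and with arrays of 1 title number averaged, and that of CG15005 with only the groups compared fitted or with the replicate block.

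The other 49 members passed none of the 6 tests, and the share of all probe sets that passed none was not counted. Their PBS means ran from 306.2 to 3807.1 signal units and their ratios of PBS to E. coli means from 1.505 to 8.63, with a median of 1.81. CG7130, a predicted J-domain protein named after its values were seen, read 373.3, 635.4 and 2015.8 units on the Dif arrays, against 279.4, 211.8 and 56.4 in wild type given E. coli and 361.5, 389.8 and 395.2 given PBS. Its highest value stood on Dif replicate 3, which was also highest for Hsp26 and Hsp68, while all Dif arrays were high for Hsp26. The part of heat shock in the CG7130 signal was not tested.

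The members were set beside the 3893 tested CG probe sets in features that the rule did not use. Of the 76, 20 lie on chromosome arm 3R (26.3%, against 24.5% of the tested CG probe sets), 16 on 2L (21.1%, against 18%), 16 on 2R (21.1%, against 18.5%), 15 on 3L (19.7%, against 19.8%) and 9 on the X chromosome (11.8%, against 18.4%). Median gene length in RefSeq Release 6 was 1896.5 bases for the members and 1958 for the tested CG probe sets found there. The members' median PBS mean was 731.5 units, against 305.2, a difference that the PBS minimum of the rule builds in.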

How the data were processed

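Whole-larva RNA was measured on 15 arrays, 3 in each of 5 groups. The deposited values are intensities, 1 linear signal per probe set, which the authors made with MAS 5.0 at default settings and global scaling, per the labels. About 25 micrograms of total RNA were labelled per array. No detection calls were used, and the number of arrays limits the precision.

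Symbols came from the platform annotation, and chromosomes, synonyms and gene order from RefSeq Release 6. No coordinates are printed, since the array design's build is not given in the sources used here. Sequences of the members were not used here.

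Signals were analysed as log2(signal + 80), which understates changes of low signals. Tested were the 11427 probe sets, all members among them, whose signal reached 160 on 3 or more arrays; 44 control probe sets were left out. limma 3.58.1 (R 4.3.3; lmFit, eBayes with a variance trend) was fitted with a mean per group over 15 arrays and 10 residual degrees of freedom. Tests were two-sided, with Benjamini-Hochberg adjustment over 11427 and calls at an adjusted p under 0.05. The fit was tried on simulated independent noise with shifts added to the Relish arrays alone. That trial did not cover the choice of members or arrays of a shared source. The 6 comparisons were the mutant pairs and each mutant against the mean of both wild type groups. Labels do not say that pools came from separate cultures, so p-values measure the spread between pools, which may be technical. Titles give 1 number to dorsal replicates 1 and 2, and to replicates 2 and 3 of each wild type group.

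Genes named were the 10 with the highest PBS to E. coli ratio, the 5 with the highest PBS mean, the 20 called members with the smallest adjusted p, adjacent members and those at the thresholds. CG6067, CG7130, CG6195, CG10311, CG11885, CG12159, CG14985, CG15005, the kinase-like family and members listed by the place of their means were named after their values were seen. The members, gene lists and tests were chosen with earlier results of these data known. The alternatives were pseudocounts of 40 and 160, other filters, quantile normalization, fitting only the groups compared, a replicate block, averaging arrays of 1 title number, and leaving out each array. Fitting the 9 mutant arrays alone was added after seeing the data.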

Additional observations from a re-analysis of the deposited data

How the results depend on the processing

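The number of members depends on the rule: 27 probe sets met it at a ratio of at least 2, 131 at 1.3, 128 at a PBS mean of at least 150 units and 44 at 600. Without any 1 wild type array it was 120 to 171, since fewer arrays then had to be separated. After quantile normalization 92 met the rule. Of the 47 calls, 8 held under all alternatives, 12 without each array, and none changed direction. Members called between Relish and Dif numbered 1, 2 with the replicate block and 1 to 3 without 1 array. Between Relish and dorsal there were 8, 4 without a filter, 2 with only both groups fitted, 1 with arrays of 1 title number averaged, 1 with only the 9 mutant arrays fitted and 1 to 5 without 1 array. Between Dif and dorsal there were 14, with 3, 2, 7 and 5 to 15 under the last 4 of these settings. Against the wild type mean, Relish had 5, then 9 with only the groups compared, 2 with such arrays averaged and 1 to 6 without 1 array. Dif had 11, with 5 averaged and 2 to 9 without 1 array, and dorsal had 8, with 4 averaged and 5 to 9 without 1 array. No shares of all probe sets are set beside the counts without 1 array, and the cause of these shifts was not tested. Replicate numbers did not clearly pair the samples: deviations of arrays with 1 number correlated at -0.11 to 0.34, with 7 of 30 pairs over 0.1. Arrays of different numbers correlated at -0.27 to 0.19, and 8 of the 15 arrays matched best with an array of their own number. The replicate block gave 8, 14, 6, 11 and 8 in the other comparisons, so it moved no other count by over 1.5 times. The planned description of protein and promoter features was not run. Signals near or below the pseudocount of 80 carry little information on fold changes.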

Other observations

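Of the tested Dro-named genes outside the 76, JhI-26 is known by a name and so was not eligible. It read 2508.2, 3627.2 and 2647.1 signal units in Relish, 1502.1, 3098.7 and 3738.9 in Dif and 1375.2, 1535.9 and 981.1 in dorsal, against 2126.8, 1785.4 and 1894.7 in wild type given E. coli and 4609.3, 4618.5 and 4646.9 given PBS. The wild type groups did not overlap, and the dorsal arrays lay below both of them. The rule turned round, for CG genes higher with E. coli and with an E. coli mean of at least 300 units, was met by 105 probe sets, more than the 76 described here.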
